A study of Mus musculus with 9 samples.

Results

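Regions of the mouse genome whose reporter activity differed between cells given retinoic acid (RA) without leukemia inhibitory factor (LIF) and cells kept in LIF are described here, with each direction of change set beside the other. They are all regions of the authors' lists of RA-induced regions (RA over LIF) and of LIF-dependent regions (LIF over RA), with entries of identical start and end counted once. There were 382 RA-induced and 601 LIF-dependent regions, 983 of the 202373 distinct regions in the 5 deposited peak lists. RA-induced regions were 38.9% of the changed regions (95% Wilson interval 35.9 to 41.9%).

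The study transfected E14 cells, an established line of mouse embryonic stem cells, with a FAIRE-STARR-seq plasmid library. The library DNA was accessible chromatin taken from RA-treated cells, and no library from cells in LIF was used here. The new medium came at 12 h, and from the same transfections one portion of the cells stayed in LIF (3 samples) while another was without LIF and received 1 µM RA for 4 h (3 samples). Each biological replicate combined 4 transfections. The plasmid library was sequenced as 1 input sample, and the retinoic acid receptor RARA was mapped by ChIP-seq after RA in 1 sample with 1 ChIP input. LIF removal and RA addition went together, so their parts in a change cannot be told apart.

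RA enters cells and binds the nuclear receptors RARA, RARB and RARG, which sit on DNA as partners of RXR proteins and exchange corepressors for coactivators when the ligand binds. RA is a widely used agent to start differentiation of embryonic stem cells. LIF acts through its receptor and gp130 on the kinase JAK and the transcription factor STAT3, and holds mouse embryonic stem cells in the pluripotent state. FAIRE recovers nucleosome-poor DNA, and STARR-seq places such fragments in a transcribed part of a reporter, so that an active fragment is read from its own RNA. The episomal plasmid does not carry the chromatin of the fragment's home locus.

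The values of the lists are the authors' own: a fold enrichment at the summit of each region, a −log10 q and the summit position. Both lists were called on merged replicates. No value per sample exists in them, read depth is unknown, and no test over samples could be made. All intervals are 95% intervals over regions and cover counting error only, not the spread between cultures. Coordinates are mm9 and counted from 1. Regions are given by position alone because no mm9 genome or annotation was at hand.

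The median size of the change was close in both directions. The fold ran from 1.76 to 20.3 in RA-induced regions, with a median of 5.47 (5.11 to 5.84). It ran from 1.89 to 25.7 in LIF-dependent regions, with a median of 5.25 (4.97 to 5.51). The distributions overlapped nearly throughout. At least 4-fold was reached by 74.3% of RA-induced and 71.7% of LIF-dependent regions, a difference of 2.63 percentage points whose interval (-3.13 to 8.19) holds 0. At least 8-fold was reached by 20.2% and 18.3% (difference 1.85 points, -3.11 to 7.04). A difference of up to 7.04 points therefore lies within the interval. Only the far tail was listed more often for LIF, with 5 LIF-dependent and 1 RA-induced region at 16-fold or more, and the interval of that difference holds 0 as well. The median −log10 q was 14.9 (12.9 to 16.6) for RA-induced and 13.7 (12.5 to 15.0) for LIF-dependent regions.

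The fold values came in steps: 59 RA-induced and 145 LIF-dependent regions had the same fold as another region of their list. On chromosome 11 from 34021835 to 34022130 and on chromosome 2 from 163625039 to 163625402, the RA-induced fold was 13.7 and the −log10 q 21.5 in both. A difference of a single step between regions is therefore no measure of a difference in response.

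RA-induced regions fell apart by their place relative to the mESC enhancers, the regions that the authors called as active in LIF over the plasmid input. The 195 that overlapped an mESC enhancer had a median fold of 4.47 (4.17 to 4.74) and a median −log10 q of 22.15. In the 187 outside that list the median fold was 6.48 (5.99 to 7.23) and the median −log10 q 9.75. The group with the larger median fold thus had the lower median −log10 q. Within each whole list the order was the opposite: fold and −log10 q had a Spearman's rho of 0.302 over RA-induced and 0.309 over LIF-dependent regions, a description with no test. At least 8-fold was reached by 32.6% outside against 8.21% at an mESC enhancer. LIF-dependent regions lay between these, at 18.3%. The LIF samples are the denominator of the RA over LIF fold and the numerator of the mESC call, so this split shares data with the fold and no test was made of it.

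**Figure D1:**
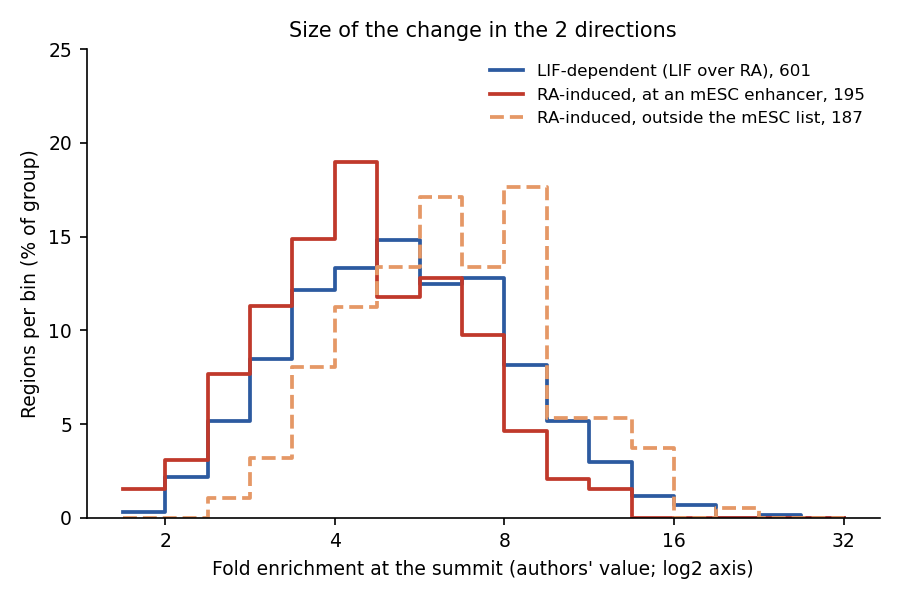
Distribution of the fold enrichment at the summit (log2 axis) as the percent of each group per bin, for LIF-dependent regions and for RA-induced regions split by whether they overlap an mESC enhancer. The LIF-dependent curve (median 5.25) lies between the RA-induced curves (medians 4.47 and 6.48).

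The strongest members of each list are given by position. The RA-induced region of highest fold lay on chromosome 19 from 37770294 to 37770533, in plasmid DNA of below-median representation (input fold 4.07), with a fold of 20.3 and an RARA peak of 10.2-fold. Next came chromosome 3 from 143382980 to 143383197 (15.4-fold), chromosome 11 from 9792744 to 9792997 (14.8-fold) and chromosome 1 from 132628339 to 132628690 (14.5-fold), none of which had an RARA peak. Of the 10 RA-induced regions of highest fold, from 13.1 to 20.3, 1 overlapped an mESC enhancer and 2 an RARA peak, beside 51.0% and 30.9% of the whole list. The one at an mESC enhancer, on chromosome 12 from 15122316 to 15122661, also had the highest −log10 q of the 10, at 95.8.

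The LIF-dependent region of highest fold lay on chromosome 19 from 53841929 to 53842130, with 25.7-fold and an input fold of 3.80. It was followed by chromosome 1 from 30995692 to 30995892 (18.2-fold), chromosome 15 from 47027736 to 47027927 (18.0-fold) and chromosome 4 from 75447033 to 75447310 (17.0-fold). All 10 LIF-dependent regions of highest fold, from 14.1 to 25.7, overlapped an mESC enhancer and none an RARA peak, beside 99.8% and 16.6% of the whole list, so the mESC count is that of the list. Of these 10, a pair on chromosome 18, from 63656558 to 63656770 (15.7-fold) and from 64084414 to 64084641 (15.7-fold), were each other's nearest LIF-dependent neighbours.

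Ranked by −log10 q, other regions led. The RA-induced region of highest −log10 q (172) lay on chromosome 3 from 95456888 to 95457230, with a fold of 6.63 and an RARA peak of 19.1-fold. On chromosome 1 from 63185192 to 63185507 the −log10 q was 149.6, the fold 7.27 and the RARA fold 22.7. Of the 3 highest, the last, on chromosome 2 from 153171270 to 153171546, had no RARA peak. Among LIF-dependent regions the highest −log10 q (155) lay on chromosome 15 from 8781977 to 8782309, with a fold of 7.80 and a weaker RARA peak of 3.59-fold. The 3 RA-induced regions of highest −log10 q had folds of 6.63, 7.27 and 5.24, beside a list median of 5.47 and a highest fold of 20.3. The 3 LIF-dependent ones had 7.80, 8.30 and 12.8, beside a median of 5.25 and a highest fold of 25.7. In neither direction were these 3 calls the ones of highest fold.

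At the other end, the weakest RA-induced fold, 1.76, lay on chromosome 3 from 121977080 to 121977318, and the weakest LIF-dependent fold, 1.89, on chromosome 5 from 34512001 to 34512399. All 5 RA-induced regions of lowest fold overlapped an mESC enhancer, beside 51.0% of the list. The 5 LIF-dependent ones did too, as nearly all of their list. Their input folds ran from 10.6 to 23.1 for RA-induced and from 9.41 to 26.5 for LIF-dependent regions, above the input median of 5.48 in every case. The whole lists had median input folds of 11.7 and 12.3, also above that input median. The lowest input folds here, 10.6 and 9.41, lay below their own list's median.

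Widths were close in both directions. RA-induced regions had a median width of 274.5 bp (265 to 283), a range of 180 to 921 bp and quartiles of 231 and 329 bp. LIF-dependent regions had a median of 267 bp (259 to 276), a range of 180 to 796 bp and quartiles of 230 and 322 bp. Widths of 400 bp or more were seen in 9.69% and 9.32%, and widths under 200 bp in 7.59% and 7.65%. The RA-induced regions covered 112 kb in all and the LIF-dependent regions 174 kb. The summit lay near the middle, at a median of 49.2% of the width in RA-induced and 49.8% in LIF-dependent regions. Fold did not follow width across regions (Spearman's rho 0.055 over 382 RA-induced and -0.0088 over 601 LIF-dependent regions, a description with no test).

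The widest RA-induced region, 921 bp, lay on chromosome 8 from 101990348 to 101991268, and the widest LIF-dependent region, 796 bp, on chromosome 17 from 13886133 to 13886928. Both were in thinly represented DNA, with input folds of 4.67 and 2.96, but the second widest of each list were not (9.67 and 9.71). Width and input fold had a Spearman's rho of 0.134 over RA-induced and 0.031 over LIF-dependent regions, a description with no test. The second widest LIF-dependent region, 741 bp, on chromosome 12 from 5062285 to 5063025, was the single LIF-dependent region outside the mESC list.

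The mESC enhancers that held a changed region were wide, most of all for the RA-induced list. Where the change was RA-induced, the mESC enhancer had a median width of 386 bp (374 to 403), where it was LIF-dependent 346.5 bp (333 to 359), and the 3879 in neither changed list 307 bp (305 to 310). These 3 intervals do not overlap. In the top decile of library representation the order was kept between the directions, at 392.5 bp (376 to 408) and 368.5 bp (359 to 387), with overlapping intervals. The summit of a changed region fell on or beside the mESC summit in both directions: within 50 bp in 93.3% of 195 RA-induced and 95.5% of 600 LIF-dependent regions (difference -2.17 points, -6.78 to 1.20). The median distance was 9.0 bp for RA-induced and 0.0 bp for LIF-dependent regions. LIF signal enters both the mESC and the LIF over RA calls, which share their LIF samples.

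Of the 4674 mESC enhancers, 4.17% overlapped an RA-induced and 12.8% a LIF-dependent region. Of the 186959 plasmid input regions, 0.201% held an RA-induced and 0.311% a LIF-dependent region. Separately, 2.47% of these input regions overlapped an mESC enhancer, which is a share of another kind. The mESC enhancers were also split by quartile of the authors' activity score in LIF, a value of unstated scale. From lowest to highest score, the RA-induced share of these enhancers was 4.45%, 4.37%, 4.54% and 3.34%. The LIF-dependent share was 11.5%, 10.8%, 12.8% and 16.3%. The RA-induced intervals of all 4 quartiles overlap (lowest quartile 3.41 to 5.79%, highest 2.45 to 4.53%), whereas the LIF-dependent share of the highest quartile (14.2 to 18.5%) lies above those of the lowest (9.76 to 13.4%) and of the second (9.14 to 12.7%). The score and both lists of changed regions share the LIF samples, so these shares are a description with no test.

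Both directions lay in the best represented part of the plasmid library. RA-induced regions were held by 0.201% and LIF-dependent regions by 0.311% of the input regions. An input region was overlapped by 98.4% of RA-induced and 96.7% of LIF-dependent regions, leaving 6 and 20 outside. The fold of the overlapped input region, the authors' measure of how strongly the plasmid library held that DNA, had a median of 11.7 (10.8 to 12.7) for RA-induced and 12.3 (11.5 to 13.1) for LIF-dependent regions, against 5.48 over all input regions. The top decile of input regions by fold held 54.7% of RA-induced and 55.9% of LIF-dependent regions (difference -1.19 points, -7.56 to 5.14). The lowest 5 deciles together held 16.8% and 13.8% (difference 2.94 points, -1.59 to 7.74).

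Per 1000 input regions, the lowest decile held 0.481 with an RA-induced region (0.253 to 0.915) and 0.642 with a LIF-dependent region (0.367 to 1.12). Through the 7 lowest deciles the values stayed between 0.481 and 0.856 for RA-induced and between 0.642 and 1.18 for LIF-dependent regions. They then climbed steeply, to 2.90 and 3.96 in the ninth decile and to 11.2 (9.77 to 12.8) and 18.0 (16.2 to 20.0) in the tenth. The balance between the directions stayed much the same along this climb. RA-induced regions were 42.9% of the 21 changed regions in the lowest decile and 38.3% of the 545 in the highest, with 32.8% to 51.6% over the 10 deciles. The interval of every decile holds the 38.9% of all changed regions. This is no mark of the changed regions: among mESC enhancers that neither list touched, 63.3% lay in the top decile (61.8 to 64.8%) and 78.8% in the top 2, against 69.6% of RA-induced and 68.9% of LIF-dependent regions in the top 2. Whether the ease of calling a peak there has a part in it was not tested.

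**Figure D2:**
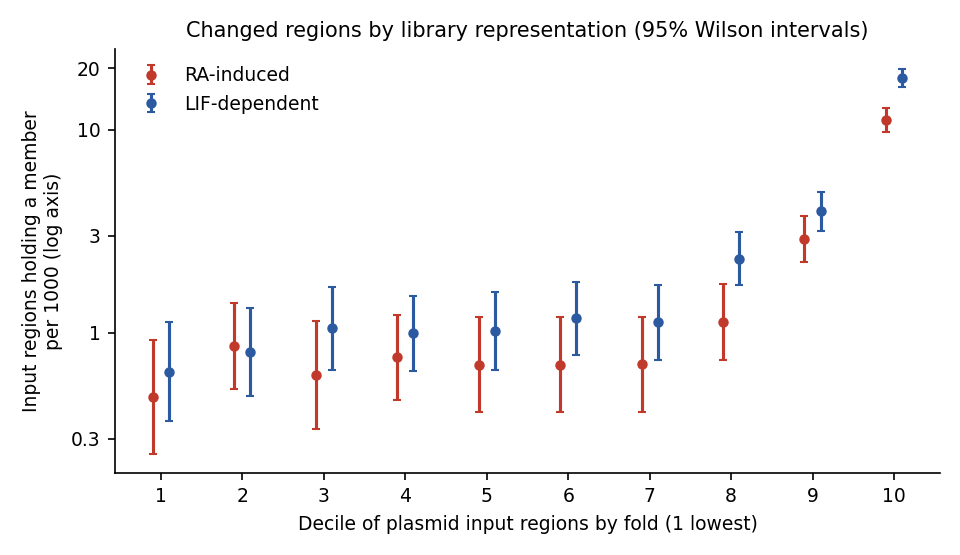
Input regions holding an RA-induced or a LIF-dependent region per 1000 input regions (log axis), by decile of the input regions' fold; bars are 95% Wilson intervals. Both directions lie near 1 or below through decile 7 and reach 11.2 and 18.0 in decile 10.

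The even balance hid a split within the RA-induced list. RA-induced regions at an mESC enhancer had a median input fold of 15.0 (13.8 to 16.1), and 74.9% of them lay in the top input decile. Those outside had a median of 8.33 (6.98 to 9.78), and 33.7% lay there. LIF-dependent regions at an mESC enhancer, at 12.3 (11.5 to 13.1) and 56.0%, were between them. Against these, RA-induced regions at an mESC enhancer were 18.9 points more often in the top decile (11.3 to 25.7), and those outside 22.2 points less often than the LIF-dependent list (difference -22.2, -29.7 to -14.1). Of RA-induced regions in the top decile 69.9% overlapped an mESC enhancer, and of those in the lowest 5 deciles 12.5% did.

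Fold was lower in better represented DNA in both directions. Across regions, the fold of the change and the input fold had a Spearman's rho of -0.380 over 376 RA-induced and -0.318 over 581 LIF-dependent regions. The −log10 q went the opposite way, with rho of 0.356 and 0.340. These are descriptions with no test: a region's values share its local coverage. In the top input decile the median fold was 4.64 for RA-induced and 4.66 for LIF-dependent regions. In the lowest 5 deciles it was 7.11 and 7.28. Within a level of representation the directions therefore differed by less than their intervals (4.30 to 5.10 and 4.43 to 4.99 in the top decile).

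**Figure D3:**
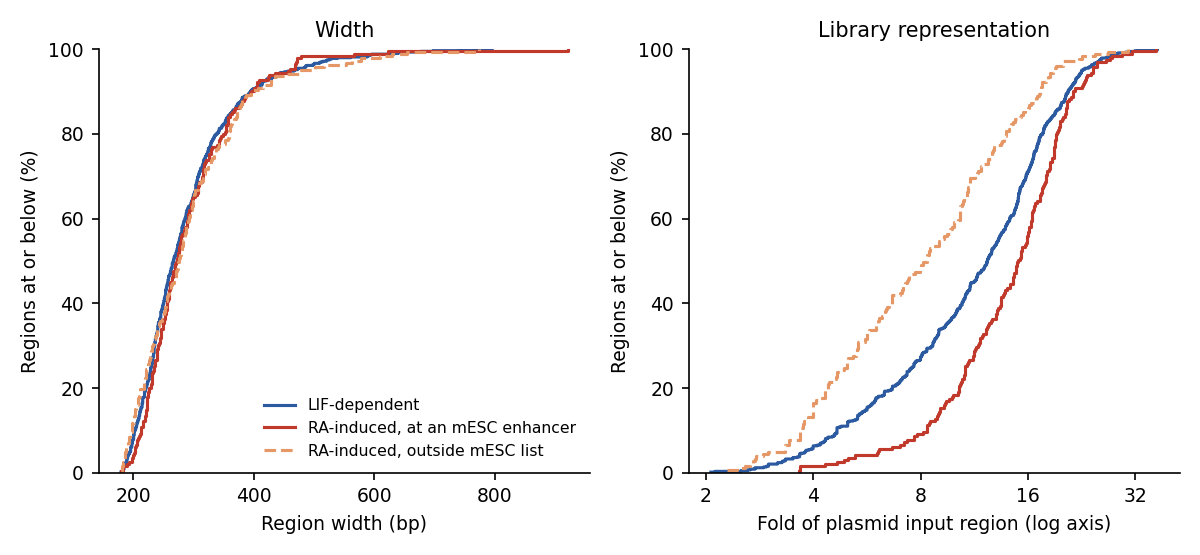
Cumulative percent of regions by width in bp (left) and by the fold of the overlapped plasmid input region on a log axis (right), for LIF-dependent regions and for RA-induced regions split by whether they overlap an mESC enhancer. The 3 width curves run together, and the input curves separate, with medians of 12.3 for LIF-dependent regions and of 15.0 at and 8.33 outside an mESC enhancer for RA-induced regions.

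The extremes of representation follow. The best represented RA-induced region lay on chromosome 13 from 66092022 to 66092256, with an input fold of 36.5, a fold of 5.22 and a −log10 q of 107. Its nearest RA-induced neighbour, on chromosome 13 from 66412916 to 66413284, was the second best represented (input fold 31.3, fold 8.74), and both had an RARA peak. The best represented LIF-dependent region, on chromosome 4 from 33910879 to 33911129, had an input fold of 36.9 and a fold of 3.77. The least represented regions were on chromosome 4 from 83060216 to 83060587 (RA-induced, input fold 2.30, fold 4.71) and on chromosome 4 from 124801921 to 124802131 (LIF-dependent, input fold 2.07, fold 3.03).

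The regions outside every input region were few. The 6 RA-induced ones had folds from 4.28 to 11.1, and none overlapped an mESC enhancer, where 51.0% of the list did. The 20 LIF-dependent ones had folds from 3.22 to 14.1, and all overlapped an mESC enhancer, as did 99.8% of their list. None of either had an RARA peak, beside 30.9% and 16.6% of the whole lists.

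RARA, a receptor through which RA acts, had peaks at a larger share of the RA-induced than of the LIF-dependent list. For peaks of any fold, this difference lay in the RA-induced regions at an mESC enhancer. An RARA peak was overlapped by 2.94% of all input regions, by 30.9% of RA-induced and by 16.6% of LIF-dependent regions (difference 14.3 points, 8.80 to 19.8). Among mESC enhancers that neither list touched, 17.3% did (673 of 3879; 16.2 to 18.6%), close to the LIF-dependent share. RA-induced regions at an mESC enhancer had 44.1%, against 16.7% of LIF-dependent regions at one (difference 27.4 points, 19.9 to 35.0). RA-induced regions outside the mESC list had 17.1%, which differed from the LIF-dependent list by 0.47 points (-5.22 to 7.12). Over the whole lists, the gap in relative terms widened with the strength of the RARA peak. Peaks of 3-fold or more were at 24.1% and 11.1%, of 5-fold or more at 15.7% and 3.66% (difference 12.0 points, 8.27 to 16.2), and of 10-fold or more at 8.64% (33 regions) and 1.16% (7 regions; difference 7.47 points, 4.76 to 10.8). For strong peaks, RA-induced regions outside the mESC list also exceeded the LIF-dependent list. Peaks of 5-fold or more were at 7.49% of them (difference 3.83 points, 0.34 to 8.67). Those of 10-fold or more were at 4.28% (8 regions; difference 3.11 points, 0.69 to 7.09). No region overlapped several RARA peaks. The RARA data come from 1 library after RA, so occupancy in LIF is not part of this comparison.

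Around the regions, as opposed to within them, the directions were close over the whole lists. Among regions that overlapped no RARA peak, one lay within 10 kb of 18.6% of 264 RA-induced and 17.2% of 501 LIF-dependent regions (difference 1.39 points, -4.12 to 7.36). Within 50 kb the shares were 42.4% and 41.9% (difference 0.51 points, -6.76 to 7.88), and within 100 kb 58.7% and 55.7% (difference 3.02 points, -4.37 to 10.3). The mESC enhancers in neither list, again without an overlapping RARA peak, had one within 10 kb in 18.2% and within 100 kb in 64.2%. A difference of 7.36 points within 10 kb lies inside the interval, so like surroundings are not shown, but the 14.3 points of the overlap lie outside it. The whole RA-induced list also joins unlike parts. With overlapping peaks counted too, 58.5% of its regions at an mESC enhancer and 28.3% of those outside had a peak within 10 kb. Much of this was the overlap itself: 86 of those 114 regions at an mESC enhancer and 32 of those 53 outside overlapped a peak. LIF-dependent regions had 30.9%. Regions without an overlapping peak were not split in this way, so the closeness holds for the whole lists only.

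RARA overlap also rises with library representation, from 1.42% of input regions in the lowest decile to 9.44% in the highest. Within the top input decile the directions still differed, with 34.4% of 209 RA-induced and 19.9% of 336 LIF-dependent regions (difference 14.5 points, 6.86 to 22.2). In the lowest 5 deciles the shares were 14.1% of 64 and 8.43% of 83, and the interval of the difference (-4.64 to 17.0) holds 0. Counting only RARA peaks of 5-fold or more there, the shares were 10.9% and 1.20% (difference 9.73 points, 2.06 to 19.7). The part of library representation in the difference between directions was not tested.

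The share with an RARA peak followed the −log10 q of the change more than its fold. From the lowest to the highest quartile of −log10 q it was 14.6%, 23.2%, 25.3% and 60.4% (50.4 to 69.6%) in RA-induced regions. In LIF-dependent regions it was 10.6%, 12.0%, 14.0% and 30.0% (23.2 to 37.8%). The share was highest in the top quartile in both directions. Of the RA-induced regions in that quartile 87.5% overlapped an mESC enhancer, against 26.0% in the lowest. By quartile of fold the pattern was another. RA-induced regions had 22.9%, 37.9%, 37.9% and 25.0%, highest in the middle, and LIF-dependent regions 20.5%, 24.7%, 12.7% and 8.67%. LIF-dependent regions with an RARA peak accordingly had a smaller median fold, 4.34 (4.07 to 4.91), than those without, 5.47 (5.22 to 5.78). RA-induced regions had 5.50 with and 5.46 without an RARA peak. These 2 groups differed in place, however. Of the 118 with an RARA peak 86 overlapped an mESC enhancer, and of the 264 without one 109 did. From the lowest to the highest quartile of RA-induced fold, 76.0%, 60.0%, 43.2% and 25.0% overlapped an mESC enhancer. Fold with and without an RARA peak was not compared within these parts, so the close medians do not show that the 2 are unrelated.

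**Figure D4:**
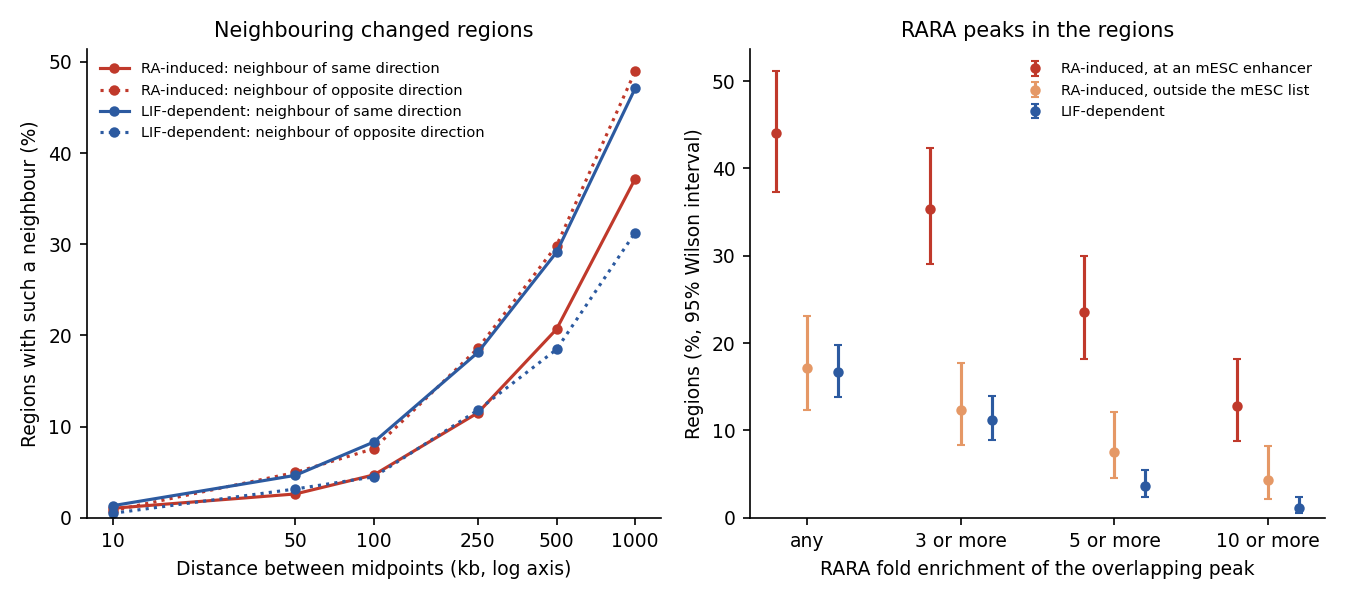
Left, percent of regions with a changed region of the same or the opposite direction within a given distance (kb between midpoints, log axis); right, percent of regions overlapping an RARA peak of any fold or of at least 3-, 5- or 10-fold, with 95% Wilson intervals. The curves on the left pair up by the list that is looked for, and on the right RA-induced regions at an mESC enhancer stand highest at every RARA fold.

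Along the genome the directions were interleaved. No RA-induced region overlapped a LIF-dependent one, no input region held both, and none held more than 1 of either. The nearest changed region was of the same direction for 37.7% of RA-induced regions (33.0 to 42.7%), beside the 38.9% that RA-induced regions make up of all changed regions. For LIF-dependent regions it was 59.7% (55.8 to 63.6%), beside 61.1%. With the LIF-dependent list held to its 382 regions of highest −log10 q, the shares became 47.6% and 48.2%. Of 963 pairs of changed regions that follow each other on a chromosome, 493 were of the same direction (51.2%, 48.0 to 54.3%). As the lists differ in size, an even split is not the reference for this share. The neighbours of RA-induced regions were RA-induced in 37.2% of cases, and those of LIF-dependent regions in 39.9%, with overlapping intervals (33.8 to 40.7% and 37.1 to 42.7%).

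Distances between changed regions were close as well. The median distance to the nearest changed region of either direction was 719 kb (553 to 824) from RA-induced and 703 kb (565 to 807) from LIF-dependent regions. A changed region of either direction lay within 100 kb of 11.5% and 12.8% (difference -1.29 points, -5.35 to 3.05), and within 1 Mb of 64.7% and 62.9%. By direction, RA-induced regions had another RA-induced region within 100 kb in 4.71% and a LIF-dependent one in 7.59%. LIF-dependent regions had another LIF-dependent one in 8.32% and an RA-induced one in 4.49%. The shares thus went with the size of the list that was looked for: both directions found a neighbour more often in the longer LIF-dependent list, and at shares close to each other.

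Close pairs of both kinds existed but were few. The closest pair of opposite direction lay on chromosome 4: an RA-induced region from 141125891 to 141126347 (6.86-fold) and a LIF-dependent region from 141121323 to 141121634 (3.50-fold), 4.64 kb apart. Both overlapped an mESC enhancer and both had a strong RARA peak, of 17.7-fold and 12.2-fold. The next was on chromosome 14, from 35177811 to 35178217 (RA-induced, 7.46-fold) and from 35173097 to 35173399 (LIF-dependent, 6.83-fold), 4.77 kb apart. Pairs on chromosome 10 (6.76 kb), chromosome 4 (10.5 kb) and chromosome 2 (13.5 kb) completed the 5 closest. In the pair on chromosome 2 the RA-induced region, from 20590028 to 20590300, had an RARA peak of 28.0-fold and the LIF-dependent one, from 20576477 to 20576805, a peak of 3.22-fold. In 4 of these 5 pairs the RA-induced region had an RARA peak, and in 2 of them the LIF-dependent region had one as well. In the whole lists 30.9% of RA-induced and 16.6% of LIF-dependent regions had one, and 5 pairs are too few to compare with these.

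The closest RA-induced pair lay on chromosome 9, from 92823534 to 92823834 (5.08-fold) and from 92825297 to 92825637 (9.05-fold), 1.78 kb apart and outside the mESC list. The closest LIF-dependent pair lay on chromosome 3, from 88375804 to 88376224 (7.75-fold) and from 88376778 to 88377034 (4.23-fold), 0.892 kb apart. The second LIF-dependent pair, on chromosome 1 from 53806846 to 53807097 and from 53807765 to 53808048, was 0.935 kb apart.

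The 3 dense neighbourhoods chosen (ties in list order) each held both directions. How many of the other dense ones did was not counted. For 574 of the 983 changed regions, the 1 Mb window around the region held no other changed region, and for 1 it held 5 in all. That window, on chromosome 19 from 45374306 to 46319411, had 4 LIF-dependent regions and 1 RA-induced region, none with an RARA peak, and 6 mESC enhancers. Its RA-induced member, from 46150259 to 46150490, had a fold of 2.67 and lay 122 kb from the nearest LIF-dependent member. The windows around 37 regions held 4. One of them, on chromosome 1 from 183878415 to 184574788, held 2 regions of each direction, of which 3 had an RARA peak. Its RA-induced members had folds of 6.48 and 9.65 and its LIF-dependent members folds of 12.2 and 12.5. The longest run of consecutive changed regions of one direction was 7 for RA-induced (chromosome 5) and 13 for LIF-dependent regions (chromosome 3).

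Other enhancers in the surroundings were compared next. No other mESC enhancer lay within 100 kb of 52.6% of RA-induced and 56.2% of LIF-dependent regions (difference -3.62 points, -9.98 to 2.74). The median distance to the nearest other mESC enhancer was 109 kb (94.2 to 135) and 129.9 kb (111 to 154), with overlapping intervals. Among regions at an mESC enhancer, RA-induced ones were less often alone: 46.2% against 56.2% had no other within 100 kb (difference -10.0 points, -17.9 to -1.95). They also lay among more input regions, with a median of 31 within 100 kb (28 to 35) against 24 (22 to 25).

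By chromosome, the RA-induced share of changed regions ran from 29.0% on chromosome 14 (9 of 31) to 51.7% on chromosome 6 (31 of 60) among autosomes. Chromosome 6 was the single autosome with more RA-induced than LIF-dependent regions. Its interval (39.3 to 63.8%) was also the only one of the 19 autosomes not to hold the 38.9% of all changed regions. Per 1000 input regions, chromosome 6 had 3.05 RA-induced and 2.85 LIF-dependent regions, against 1.97 and 3.17 over all autosomes. Chromosome 18 had the most LIF-dependent regions of the autosomes, 4.54 per 1000, with 2.19 RA-induced.

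The X chromosome had 18 RA-induced and 16 LIF-dependent regions, 6.99 and 6.21 per 1000 input regions. Per 1000 mESC enhancers these were 143 and 127, where single autosomes ran from 58.6 to 139 for RA-induced and from 93.2 to 184 for LIF-dependent regions. On that scale the X lay within the autosomes for LIF-dependent regions and just above chromosome 6 for RA-induced regions, of which 10 lay outside the mESC list. RA-induced regions were 52.9% of the changed regions there (36.7 to 68.5%), an interval that holds the share over all chromosomes. The X held 4.71% of the RA-induced and 2.66% of the LIF-dependent list (difference 2.05 points, -0.31 to 4.85). Its RA-induced regions were mostly weaker calls, with 13 of 18 below the list's median −log10 q. Of the LIF-dependent regions 11 of 16 were below their list's median. An RARA peak was at 6 of the 18 RA-induced and at 0 of the 16 LIF-dependent regions, beside 30.9% and 16.6% of the whole lists. With only the stronger 50% of calls by −log10 q, the X held 2.62% of the RA-induced list.

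**Figure D5:**
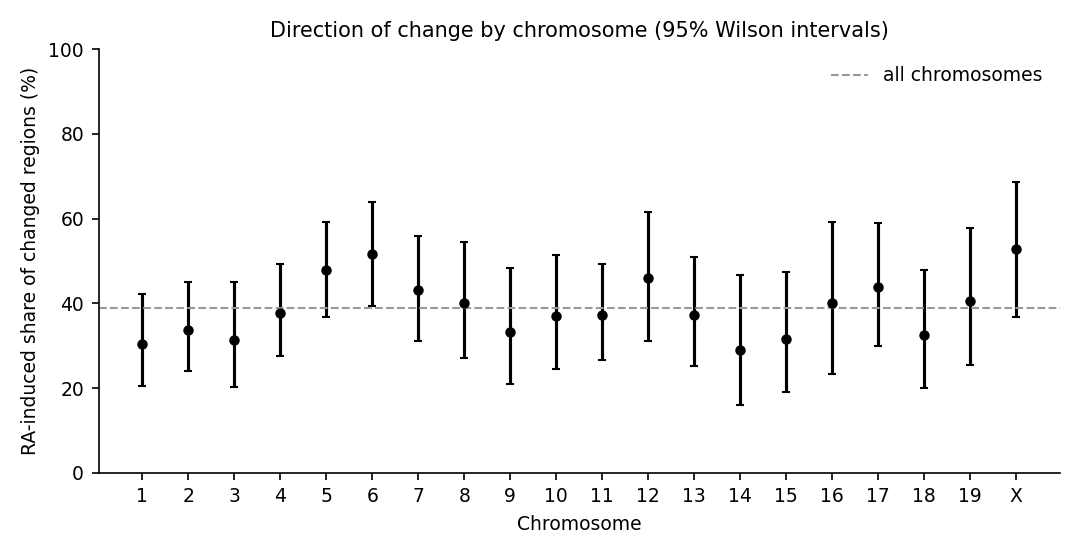
RA-induced share of the changed regions (%) on each autosome and the X, with 95% Wilson intervals; the dashed line is the 38.9% over all chromosomes. The intervals of 18 autosomes and of the X cross the line, and that of chromosome 6 (51.7%) lies just above it, with a lower bound of 39.3%.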

How the data were processed

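Reporter RNA was measured in 3 samples with LIF and 3 without LIF after RA, next to 1 plasmid input, with 1 RARA ChIP and 1 ChIP input. Samples were grouped by their titles. cDNA carried a molecular identifier of 8 nucleotides, per the labels' protocols. Bowtie2, UMI-tools, SAMtools, MACS2 and deepTools with build mm9 are named, per the submitters' processing notes; their versions and settings are not stated there. Names of the peaks in the deposited lists speak of merged replicates and of a q threshold of 0.05. The authors' fold enrichment is a ratio at the summit, and their deposited −log10 q and summit position (a count of bases from the start) were used as given. The deposited mESC table gave a score of unstated scale. The lists hold 1.85% (RA-induced) and 2.08% (LIF-dependent) of the peaks numbered in their names, and what the authors filtered on is not stated in any source at hand. Any filter that used the mESC list would set the overlap with it.

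Entries with the same start and end were collapsed to the one of highest −log10 q, from 386 to 382 and from 616 to 601. Overlap meant at least 1 bp, and distances were between midpoints. Each region took the input region, mESC enhancer or RARA peak it overlapped. Shares carry Wilson, differences of shares Newcombe and medians order-statistic intervals, all at 95% and over regions; no p-value was computed. The interval and overlap code was tested on simulated data. Named regions were the 10 highest and 5 lowest by fold, the 3 widest and narrowest, the 3 highest and lowest by input fold, the 5 closest pairs of each kind and the 3 densest 1 Mb windows (ties in list order), of which some are printed; regions named by −log10 q, the split by mESC enhancer and the RARA shares by quartile were chosen after their values were seen. The members and lists were chosen with earlier results of these data known. Alternatives changed the q threshold, list size, overlap rule, RARA threshold and distance. Genes, sequences and motifs were planned and not analysed here. The software was SciPy 1.17.1, pandas 2.3.3 and NumPy 2.4.6 under Python 3.11.15, with plots by Matplotlib 3.10.9.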

Additional observations from a re-analysis of the deposited data

How the results depend on the processing

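Of 89 alternative values, 62 lay inside the main value's interval and 27 outside it. The number of regions has no such interval. A set band took its place, of 255 to 573 for RA-induced and 401 to 901.5 for LIF-dependent regions. With only the 50% of regions of highest −log10 q, the median input fold was 14.5 (RA-induced) and 14.2 (LIF-dependent), the share in the top input decile 72.3% and 71.1%, at an mESC enhancer 73.8% and 100%, with an RARA peak 42.9% and 21.9%, and on the X 2.62% for RA-induced regions. With the LIF-dependent list held to the size of the RA-induced list, its median fold was 5.78, its median input fold 13.8, its top-decile share 67.0%, its mESC share 100% and its share with a neighbour of the same direction within 100 kb 4.71%; the nearest changed region was of the same direction in 47.6% (RA-induced) and 48.2% (LIF-dependent). Input overlap of RA-induced regions was 95.3% when 50% of the region had to be covered and 96.6% when the summit had to be. With RARA peaks at or above their list's median fold, RARA shares were 23.6% and 10.6%, and with the RARA summit inside the region 12.3% for LIF-dependent regions. Within 500 kb the median number of mESC enhancers was 2.5 and 2.0. With regions at an mESC enhancer only, an alternative chosen after seeing the data, RA-induced regions had a median fold of 4.47, a median input fold of 15.0, a top-decile share of 74.9% and an RARA share of 44.1%. In RA-induced regions outside the mESC list the RARA share was 17.1%, which differed from the LIF-dependent list by 0.47 points (-5.22 to 7.12). For RARA peaks of 5-fold or more that difference was 3.83 points (0.34 to 8.67). No paired analysis was possible because the lists come from merged replicates, and for the same reason no replicate could be left out. Depth is unknown, so the precision of a single region's fold is not known.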
